A study of Mus musculus with 20 samples.

Results

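The Wnt genes of the knee joint, that is the genes for Wnt ligands, their receptors and co-receptors, secreted antagonists, feedback inhibitors and the nuclear end of the pathway, were examined in joints injected with mesenchymal stromal cells (MSC). They were chosen by gene symbol, with earlier results of these data known, and 53 of the 14793 genes in the deposited table were members. Wnt1, Wnt3, Wnt3a, Wnt7a, Wnt8a, Wnt8b, Wnt9b and Dkk4 were not analysed here. All mice were 12-week-old male C57BL/6Nci mice whose right medial meniscus had been surgically destabilized (DMM), a model of osteoarthritis. For control joints the needle was inserted without any cells. The other joints were each injected, both at week 3 and at week 5 after DMM, with 250000 adipose-derived MSC from 1 pool of age-matched donors. These cells were non-activated (MSC) or had been kept for 2 h with 10 µg/mL of pIC, which activates TLR3 (TLR3-MSC), or of 2′,3′-cGAMP, which activates STING (STING-MSC). Because every joint had DMM and control joints received no cells or carrier, the comparisons with control cannot separate cells from injected fluid, and there was no joint without surgery. Whole knees, with cartilage, synovium, capsule and adjacent bone, were sequenced from 5 mice per group, and the description of the study places collection at 8 weeks after surgery in one place and at 24 h after injection in another.

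Wnt proteins are lipid-modified by Porcn, carried to the cell surface by Wls and bound by Frizzled receptors, together with Lrp5 or Lrp6 in the branch that stabilizes β-catenin (Ctnnb1) for transcription with TCF and LEF factors. R-spondins strengthen the signal by drawing Znrf3 and Rnf43, which remove Frizzled receptors, away through the Lgr receptors, while Dkk, Sfrp, Frzb, Wif1 and Notum weaken it outside the cell. In the joint, this pathway is known for bone formation, cartilage turnover and synovial growth, and Frzb and Wnt16 are long studied in cartilage and bone.

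The 20 joints had 27955496 to 52529973 reads on the genes of the table, recovered from the deposited normalized counts. Defining markers of cartilage, bone, synovial fibroblasts, skeletal muscle, endothelium, neutrophils and erythroid cells were above 0 in every joint, so the libraries hold the tissues that the label names, along with muscle and marrow or blood. Fewer cells of a type and less RNA per cell cannot be told apart in such tissue. Per kilobase of exon, and averaged over all joints, Ctnnb1 had the highest level of the members with a normalized count of 1234, followed by the antagonists Wif1 (586) and Sfrp4 (525). Dkk3 (297), Sfrp2 (284), Fzd7 (278), Fzd1 (270.5) and Wls (263) came next on the same scale. Ligands were lower, with Wnt9a at 118, Wnt4 at 115 and Wnt11 at 62.0 per kilobase, down to Wnt7b at 3.42 and Wnt2 at 1.91. Joints of 1 group overlapped widely for most of these genes, as the map of all members by joint shows.

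**Figure D1:**
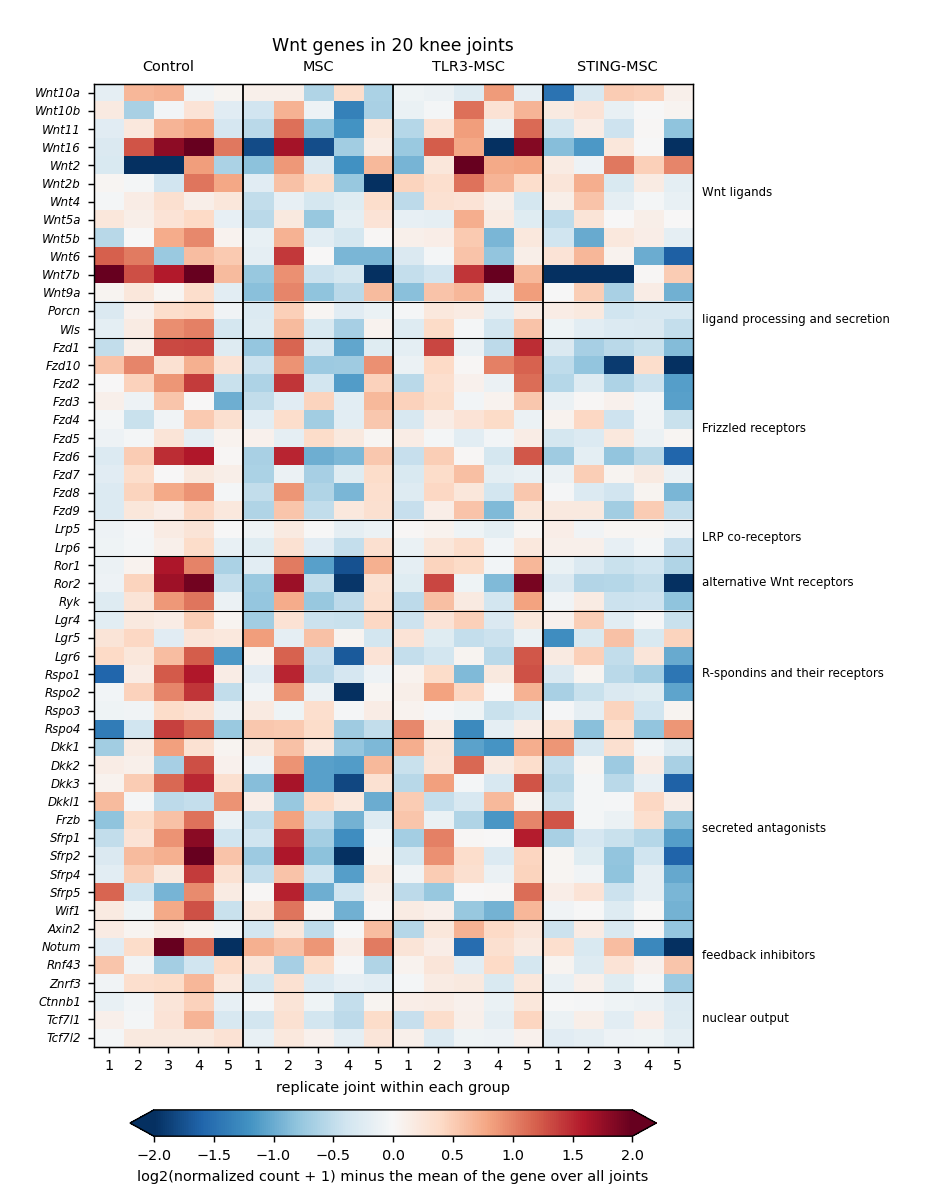
Each row is 1 of the 53 Wnt genes, grouped by role, and each column is 1 of the 20 knee joints, 5 per group. Color gives the log2(normalized count + 1) of the gene minus its mean over all joints, with values beyond 2 drawn in the end colors. Red columns stand out for control joints 3 and 4, MSC joint 2 and TLR3-MSC joint 5, and there is no such column among the STING-MSC joints.

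Compared with control joints, 16 Wnt genes fell and 1 rose after STING-MSC, at an unadjusted p of at most 0.05 in limma. This is 32.1% of the 53 members, where 12.2% of all genes tested were past the same threshold, 5.69% of them lower and 6.54% higher. Among the members that fell, the largest changes were in the ligands Wnt7b and Wnt16, the receptors Fzd10, Ror2 and Fzd6, and the antagonists Sfrp2 and Dkk3. Of the 53 log2 fold changes, 49 were negative, with a median of -0.38, whereas 48.3% of all genes were negative with a median of 0.0078. No member passed a false discovery rate (FDR) of 0.05 over all 14793 genes with limma, edgeR or DESeq2, where 17, 19 and 19 members and 12.2%, 13.3% and 15.2% of all genes were past the unadjusted threshold. The share of all genes at that FDR was 0% with limma and is not given here for edgeR and DESeq2. The lowest FDR of a member was 0.277 with limma and 0.0843 with DESeq2. All log2 fold changes below are on the log2(normalized count + 1) scale, on which the size of the change of a low gene depends on the pseudocount.

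**Figure D2:**
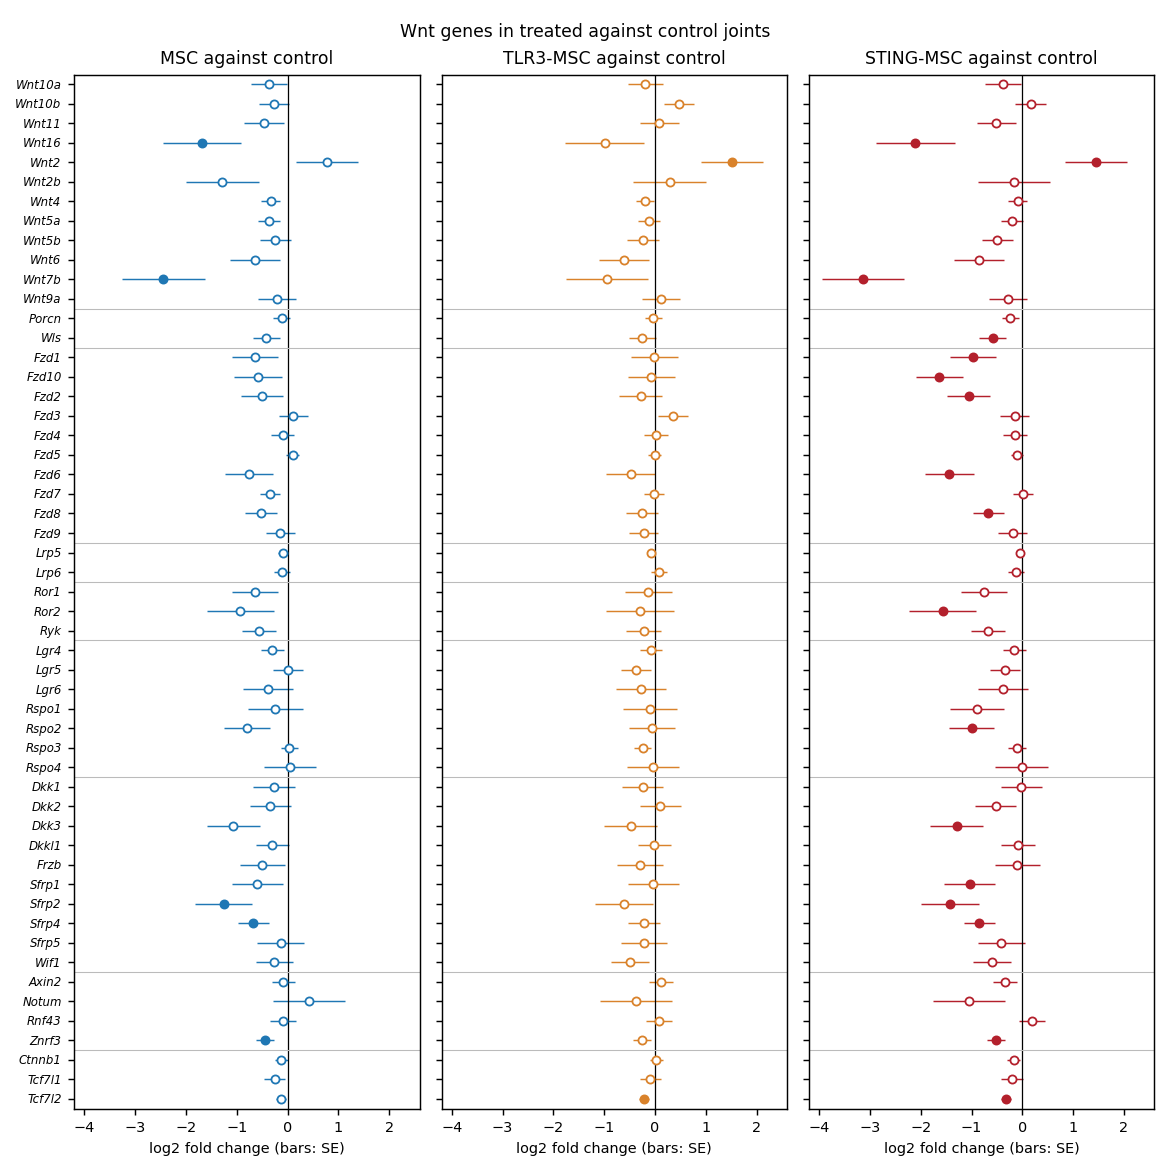
Log2 fold changes of the 53 Wnt genes in MSC, TLR3-MSC and STING-MSC joints against control joints, with bars for the standard error from limma and filled points for an unadjusted p of at most 0.05. There are 5 filled points in the MSC panel, 2 in the TLR3-MSC panel and 17 in the STING-MSC panel, and the 3 panels share the same 5 control joints.

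Among the 12 ligands, 2 fell and 1 rose after STING-MSC. Wnt7b (ENSMUSG00000022382, chromosome 15, 85419638 to 85466675), a ligand of the β-catenin branch with known roles in bone formation, had normalized counts of 54.0, 25.4, 31.4, 52.1 and 15.6 in control joints 1 to 5. In STING-MSC joints 1 to 5 the Wnt7b counts were 1.31, 0, 1.04, 10.0 and 14.4, so that every STING-MSC joint was below every control joint, as was so for 1.24% of all genes. Wnt7b fell (log2 fold change -3.13, SE 0.81, p = 0.00109, FDR = 0.277, exact permutation p = 0.00794, the smallest that this design can give). Since 3 of the STING-MSC joints held at most 1 Wnt7b read, the size depends on the pseudocount, and with a pseudocount of 5 in place of 1 the log2 fold change was -2.09. The lncRNA gene AU022754 overlaps Wnt7b on the other strand, and the use of strand in counting was not given in the sources used here, so their reads may not be separated.

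Wnt16 (ENSMUSG00000029671, chromosome 6, 22288226 to 22298522), a ligand known to protect cortical bone and to be induced in injured cartilage, had normalized counts of 62.5, 185, 269, 349.8 and 161 in control joints. It had 42.0, 34.2, 89.7, 76.2 and 10.6 in STING-MSC joints (log2 fold change -2.10, SE 0.77, p = 0.0135, FDR = 0.336, exact permutation p = 0.0238). Only control joint 1 lay within the range of the STING-MSC joints. The 250 bases before the Wnt16 start are printed with those of Fzd1 and Sfrp2 after the antagonists. Wnt2 was the only member that rose (log2 fold change 1.45, SE 0.61, p = 0.0284, FDR = 0.374, exact permutation p = 0.0556), with 2.51 to 33.8 in control joints and 17.1 to 39.6 after STING-MSC. With 2 and 3 reads in control joints 3 and 2 it is near the limit of detection, and on the recovered reads its p was 0.103 with edgeR and 0.0831 with DESeq2. The other 9 ligands did not pass the test, with log2 fold changes from -0.85 for Wnt6 to 0.16 for Wnt10b. These include Wnt4 (549 to 709 in control and 501 to 839 in STING-MSC joints) and Wnt5a, the main ligand of the β-catenin-independent branch (189 to 279 and 148 to 253). Wls, the carrier that brings Wnt proteins to the surface, fell (log2 fold change -0.58, SE 0.27, p = 0.0415, FDR = 0.393, exact permutation p = 0.0873), with 2660.3 to 6790.4 in control and 2421 to 3171 in STING-MSC joints. Porcn, the enzyme that acylates them, did not pass the test, with a log2 fold change of -0.23 (SE 0.17).

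Of the 10 Frizzled receptors, 5 fell after STING-MSC and none rose. Fzd10 (ENSMUSG00000081683, chromosome 5, 128677908 to 128681158) had normalized counts of 45.5, 60.4, 37.7, 50.2 and 37.4 in control joints. The Fzd10 counts after STING-MSC were 21.0, 17.1, 7.30, 38.7 and 4.80, a difference with log2 fold change -1.63, SE 0.47, p = 0.00255, FDR = 0.290, exact permutation p = 0.0238. STING-MSC joint 4 was the only one that reached the control range, and the antisense gene Fzd10os overlaps Fzd10. Fzd6 (ENSMUSG00000022297, chromosome 15, 38869429 to 38901584), a receptor best known from planar cell polarity, stood at 323, 558, 1091, 1195 and 399 in control joints. After STING-MSC it stood at 239, 340.04, 226, 266 and 129.5 (log2 fold change -1.44, SE 0.48, p = 0.00726, FDR = 0.315, exact permutation p = 0.0159). STING-MSC joint 2 alone was above the lowest control joint, and control joints 3 and 4 were far above the other 3. Fzd2 also fell (log2 fold change -1.06, SE 0.42, p = 0.0206, FDR = 0.368, exact permutation p = 0.0238), with 148 to 534 in control and 93.1 to 168 in STING-MSC joints. Fzd8 fell, with 387 to 876 in control and 249 to 486 in STING-MSC joints (log2 fold change -0.67, SE 0.31, p = 0.0462, FDR = 0.401, exact permutation p = 0.0714).

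Fzd1 (ENSMUSG00000044674, chromosome 5, 4803839 to 4808036) fell as well (log2 fold change -0.97, SE 0.45, p = 0.0466, FDR = 0.402, exact permutation p = 0.0317). Its normalized counts were 677, 1032, 2383, 2407 and 798 in control joints and 778, 601, 656, 699.7 and 519.99 in STING-MSC joints. STING-MSC joints lay close together, while control joints 3 and 4 were far higher and control joint 1 lay within the STING-MSC range and control joint 5 was just above it. The other 5 Frizzled genes, Fzd3, Fzd4, Fzd5, Fzd7 and Fzd9, did not pass the test, with log2 fold changes from -0.19 to 0.01. Fzd7 and Fzd4, which had the highest level per kilobase beside Fzd1, were among these 5, with Fzd7 counts of 1360.3 to 2016 in control and 1465 to 2245 in STING-MSC joints.

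**Figure D3:**
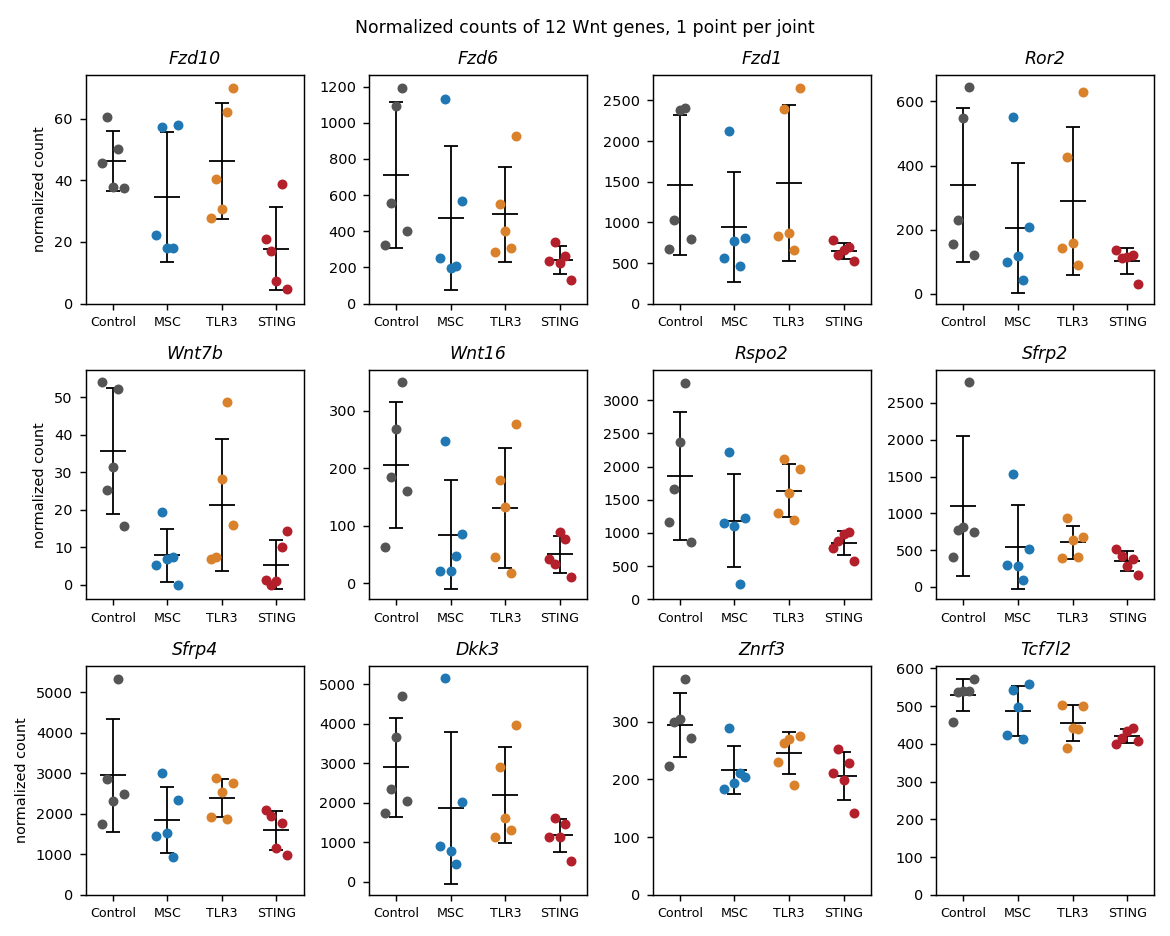
Normalized counts of 12 Wnt genes that fell after STING-MSC, with 1 point per joint and the mean ± SD of the 5 joints in each group. The control, MSC and TLR3-MSC groups each hold 1 to 3 joints far above the rest for Fzd6, Fzd1, Ror2 and Dkk3, and all 5 STING-MSC joints lie low.

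The Lrp5 and Lrp6 co-receptors of the β-catenin branch did not pass the test, with log2 fold changes of -0.04 (SE 0.08) and -0.13 (SE 0.16). Ror2, a receptor tyrosine kinase for Wnt5a that is needed in cartilage and bone development, had normalized counts of 157, 229.5, 549, 645 and 120.4 in control joints. In STING-MSC joints Ror2 had 138, 111, 114, 119.9 and 30.7 (log2 fold change -1.57, SE 0.66, p = 0.0289, FDR = 0.376, exact permutation p = 0.0159). Only STING-MSC joint 1 reached the lowest control joint, and control joints 3 and 4 were again the high ones. Ror1 and Ryk, the other 2 receptors of this kind, had log2 fold changes of -0.76 (SE 0.46) and -0.67 (SE 0.34) and did not pass.

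Of the 7 R-spondin and Lgr genes, Rspo2 fell (log2 fold change -0.999, SE 0.45, p = 0.0378, FDR = 0.387, exact permutation p = 0.0397). Rspo2, an R-spondin that raises Wnt signals in bone and limb, had counts of 1158, 1661, 2366, 3259 and 860.01 in control joints and 772, 884, 989.6, 1019.5 and 579 in STING-MSC joints. Control joint 5 lay within the STING-MSC range, and control joint 1 was just above it. Rspo1, Rspo3, Rspo4, Lgr4, Lgr5 and Lgr6 did not pass, with log2 fold changes from -0.89 for Rspo1 to -0.01 for Rspo4. For Lgr5, a receptor that is also a common target of the pathway, the log2 fold change was -0.34 (SE 0.29).

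Antagonists fell as well, 4 of 10, and none rose. Sfrp2 (ENSMUSG00000027996, chromosome 3, 83673628 to 83681624), a decoy that binds Wnt proteins, had normalized counts of 409, 777, 816, 2778 and 744 in control joints. The counts were 511, 421, 288, 379 and 163 after STING-MSC (log2 fold change -1.42, SE 0.57, p = 0.0213, FDR = 0.368, exact permutation p = 0.0238). Control joint 4 was far above the others, and control joint 1 lay within the STING-MSC range. Sfrp4, a related decoy with the highest level per kilobase of the Sfrp genes, fell, with 1748 to 5336 in control and 991 to 2082 in STING-MSC joints (log2 fold change -0.84, SE 0.31, p = 0.0129, FDR = 0.336, exact permutation p = 0.0317). Sfrp1 fell, with 305 to 1511 in control and 200.51 to 340.04 in STING-MSC joints (log2 fold change -1.04, SE 0.49, p = 0.0494, FDR = 0.407, exact permutation p = 0.0397). Dkk3, a divergent member of the Dickkopf family that is studied in cartilage, stood at 1737, 2337, 3656, 4693 and 2051 in control joints. Every STING-MSC joint, with 1126, 1612, 1136, 1468 and 536, was below every control joint (log2 fold change -1.29, SE 0.52, p = 0.0231, FDR = 0.368, exact permutation p = 0.00794). Dkk1, the classic blocker of Lrp5 and Lrp6, had a log2 fold change of -0.02 (SE 0.41), and Frzb, a decoy linked to osteoarthritis, had -0.10 (SE 0.44). Wif1, Dkk2, Sfrp5 and Dkkl1 did not pass either.

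The 250 bases before the RefSeq start of a Frizzled receptor, an antagonist and a ligand that fell are given here, to show the sequence that the pathway's own TCF and LEF factors could read. They are from the RefSeq promoter table (build GRCm38.p6), were found exactly once each in GRCm39, and carry the core letters CTTTGA of the TCF and LEF motif or their reverse complement TCAAAG in capitals. Fzd1 lies on the minus strand at chr5:4808217-4808466, Sfrp2 on the plus strand at chr3:83673378-83673627 and Wnt16 on the plus strand at chr6:22287976-22288225. For Sfrp2 and Wnt16 the RefSeq start is that of the deposited gene, whereas for Fzd1 it lies 180 bases upstream of the deposited start.
Fzd1: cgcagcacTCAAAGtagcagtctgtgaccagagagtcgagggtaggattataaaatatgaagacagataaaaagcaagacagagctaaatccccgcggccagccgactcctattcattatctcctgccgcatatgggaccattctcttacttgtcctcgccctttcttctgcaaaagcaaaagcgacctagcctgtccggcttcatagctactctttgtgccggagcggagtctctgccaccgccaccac
Sfrp2: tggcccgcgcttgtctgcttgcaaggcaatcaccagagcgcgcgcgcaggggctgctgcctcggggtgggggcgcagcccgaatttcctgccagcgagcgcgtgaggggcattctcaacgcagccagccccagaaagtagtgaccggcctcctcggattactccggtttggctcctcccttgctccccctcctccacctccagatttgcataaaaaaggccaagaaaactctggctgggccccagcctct
Wnt16: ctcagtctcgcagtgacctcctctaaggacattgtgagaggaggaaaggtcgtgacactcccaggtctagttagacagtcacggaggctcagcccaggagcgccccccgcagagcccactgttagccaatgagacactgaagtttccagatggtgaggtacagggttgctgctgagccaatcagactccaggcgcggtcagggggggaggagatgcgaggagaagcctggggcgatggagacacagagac
The Fzd1 window holds the motif once, beginning 242 bases before its RefSeq start, and the other 2 windows do not hold it. Of 41 windows for 35 members in the table, 6 (14.6%) held the motif on either strand, those of Frzb, Ror1, Fzd1, Wnt5b, Wnt11 and Dkk1, and 13.8% of all 32851 windows held it. Of the 16 members that fell, 7 had a window and 1 of these held the motif. The other 18 members had no window.

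Of the 4 feedback inhibitors, which are commonly induced by β-catenin and serve as readouts of the pathway, 1 fell. Znrf3, a ubiquitin ligase that removes Frizzled receptors, had normalized counts of 223, 298, 304, 374 and 271 in control joints and 211, 251.97, 198, 229 and 141 in STING-MSC joints (log2 fold change -0.52, SE 0.17, p = 0.00669, FDR = 0.310, exact permutation p = 0.0238). Control joint 1 lay within the STING-MSC range, while the other 4 control joints were above it. Its partner Rnf43 had a log2 fold change of 0.19 (SE 0.26), Axin2 of -0.34 (SE 0.23) and the Wnt-deacylating enzyme Notum of -1.04 (SE 0.71), and none of these 3 passed the test. For Axin2, the most used target gene, the counts were 198 to 233 in control and 121 to 234 in STING-MSC joints. Tcf7l2 (ENSMUSG00000024985, chromosome 19, 55730252 to 55922087), a DNA-binding partner of β-catenin, had counts of 457, 538, 539, 539.8 and 573 in control joints. Every STING-MSC joint, with 399, 416, 435, 442 and 408, was lower, and the change was small (log2 fold change -0.33, SE 0.10, p = 0.00341, FDR = 0.291, exact permutation p = 0.00794). Ctnnb1 and Tcf7l1 had log2 fold changes of -0.17 and -0.20 and did not pass.

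The members varied together across joints, and control joint 4 had the highest value of the 5 controls in 34 of the 53 members. Among the 16 genes that fell after STING-MSC, it was the highest control in 13 and the highest of all 20 joints in 10. The median deviation of the 53 members from their means over all joints, on the log2 scale, was 0.77 in control joint 4, 0.63 in MSC joint 2, 0.43 in TLR3-MSC joint 5 and 0.37 in control joint 3. In the 5 STING-MSC joints it lay between -0.61 and -0.04, and in the control joints between -0.09 and 0.77. The 4 joints named were also those with a count above 60000 for Col2a1, the main collagen of cartilage, at 72287 and 81465 in control joints 3 and 4, 95770 in MSC joint 2 and 80310 in TLR3-MSC joint 5. Next in Col2a1 came TLR3-MSC joint 1 (57173), MSC joint 1 (44674), STING-MSC joint 3 (42253) and STING-MSC joint 5 (34442). Their median deviations were -0.18, -0.35, -0.25 and -0.61, so a high Col2a1 count did not always go with high Wnt genes. Without the 4 joints above 60000, a limit set after seeing the data that left 3 control and 5 STING-MSC joints, 6 members passed the test, where 3.68% of all genes did. Of the 17 members called with all joints, 12 no longer passed (p from 0.0517 for Znrf3 to 0.43 for Wls), with log2 fold changes of -0.14 for Wls, -0.35 for Fzd1, -0.35 for Fzd8, -0.42 for Sfrp1, -0.51 for Rspo2, -0.61 for Fzd2, -0.82 for Ror2 and -0.91 for Sfrp2. Wnt16 (-1.58), Dkk3 (-0.88), Sfrp4 (-0.60) and Znrf3 (-0.37) kept a larger part of their log2 fold changes with all joints. Wnt7b, Fzd10, Tcf7l2, Fzd6 and Wnt2 still passed, with limma p from 0.00913 for Fzd10 to 0.0295 for Fzd6, whose log2 fold change was then -0.86. The other member that passed was Wnt6, not called with all joints (log2 fold change -1.24, limma p of 0.0219).

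When single joints were left out, Fzd10, Fzd6, Tcf7l2, Wnt16, Wnt7b and Znrf3 passed in all 10 fits. Without control joint 4, 10 of the 17 calls ended, namely Dkk3, Fzd1, Fzd2, Fzd8, Ror2, Rspo2, Sfrp1, Sfrp2, Sfrp4 and Wls, with p from 0.0505 to 0.166 in limma. Without STING-MSC joint 5, which had the lowest median deviation of all 20 joints, 10 also ended, with Wnt2 in place of Sfrp4 (p from 0.052 to 0.128). Without control joint 3, 8 ended (p from 0.0506 to 0.132), and the other joints ended 0 to 5 calls each. The number of members past the threshold was 7 without control joint 4 (5.87% of all genes), 7 without STING-MSC joint 5 (6.92%) and 10 without control joint 3 (7.47%).

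**Figure D4:**
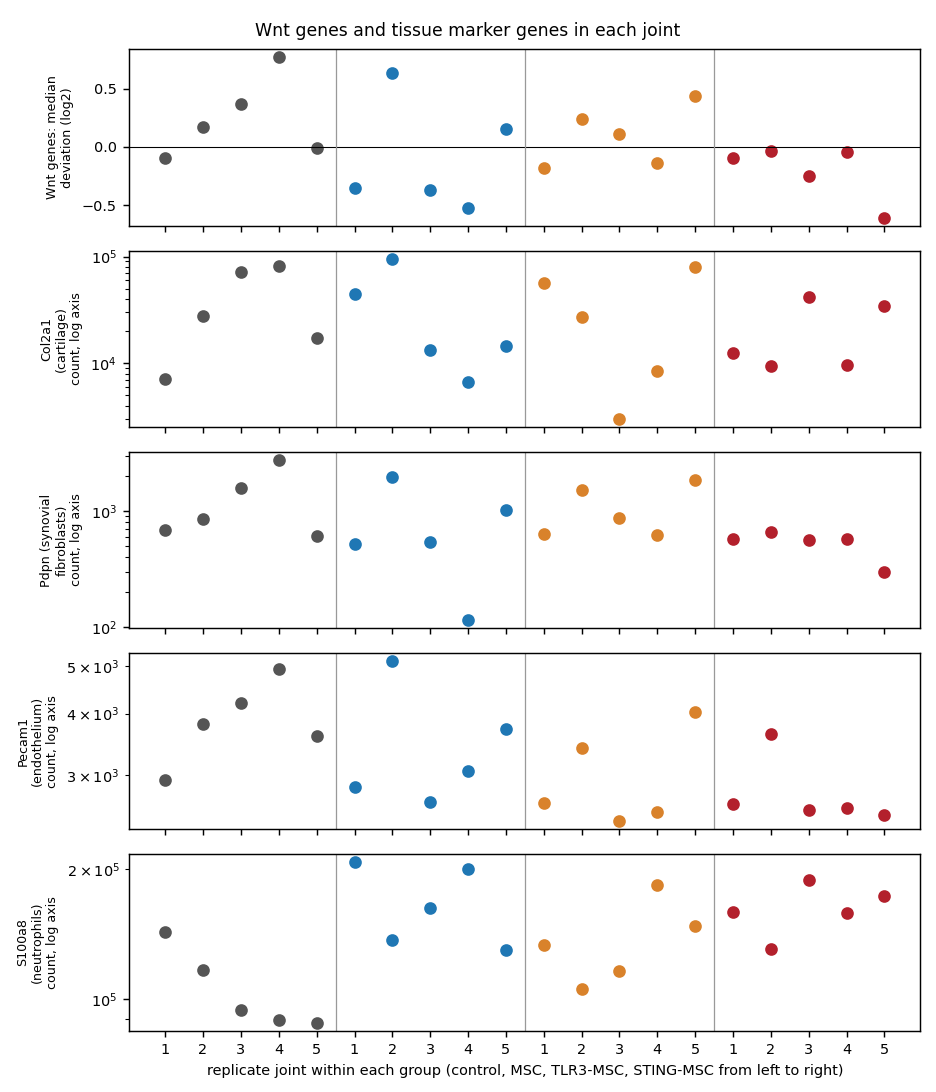
The top panel gives, for each of the 20 joints, the median over the 53 Wnt genes of log2(normalized count + 1) minus the mean of the gene over all joints. The other panels give normalized counts of Col2a1, Pdpn, Pecam1 and S100a8 on log axes, and the joints with the highest median in the control, MSC and TLR3-MSC groups also had high Col2a1 and Pdpn counts.

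Markers of the tissues in the joint moved in part with these differences. Of the 6 endothelial markers, 5 fell after STING-MSC against control (Pecam1, Cdh5, Kdr, Tie1 and Egfl7), where 5.69% of all genes were called lower. Their summed counts were 7983 to 14131 in control and 6974 to 9826 in STING-MSC joints. Of the 6 neutrophil markers, 4 rose (S100a8, S100a9, Ltf and Camp), where 6.54% of all genes were called higher. The neutrophil sums were 368777 to 654339 in control and 525684 to 815325 in STING-MSC joints. None of the 8 chondrocyte, 8 osteoblast and osteocyte or 7 synovial fibroblast markers passed the test. Their summed counts nevertheless reached higher in the control joints, at 16679.9 to 113634 against 19673 to 70902 for chondrocytes, 16592 to 44662 against 16194 to 24721 for osteoblasts and 164255 to 560869 against 52436 to 216735 for synovial fibroblasts. The upper ends were those of control joint 4, where Col2a1 alone had 81465 and the synovial marker Prg4 alone had 542070. The lowest chondrocyte sum of these joints was also in a control joint. None of the markers in these 5 lists was at 0 in any joint. Markers of other cells, such as adipocytes and skeletal muscle, are not described for this comparison. The part of tissue composition in the Wnt gene differences was not tested.

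After non-activated MSC, 5 of the 53 Wnt genes fell against control and none rose, which is 9.43% of the members beside 8.55% of all genes in either direction and 2.91% of all genes lower. The log2 fold change was negative for 46 members, with a median of -0.34, whereas 57.7% of all genes were negative with a median of -0.04. Wnt7b had normalized counts of 5.36, 19.4, 6.96, 7.42 and 0 in MSC joints 1 to 5 (log2 fold change -2.44, SE 0.81, p = 0.00731, FDR = 0.340, exact permutation p = 0.0159). MSC joint 2 alone reached the control range, and Wnt7b was listed at 0 in MSC joint 5, where 296 genes were at 0 and 239 of those had reads in all 19 other joints. Without that joint the log2 fold change was -1.79 and Wnt7b still passed. Znrf3 had 184, 289.6, 194, 210.2 and 204 (log2 fold change -0.44, SE 0.17, p = 0.0175, FDR = 0.437, exact permutation p = 0.0317), with MSC joint 2 alone above the lowest control joint. Sfrp2 (log2 fold change -1.26, SE 0.57, p = 0.0387, FDR = 0.557, exact permutation p = 0.151), Sfrp4 (log2 fold change -0.67, SE 0.31, p = 0.0407, FDR = 0.563, exact permutation p = 0.143) and Wnt16 (log2 fold change -1.68, SE 0.77, p = 0.0421, FDR = 0.565, exact permutation p = 0.0794) also fell. For these 3, MSC joint 2 was high, with 1536 for Sfrp2, 2999 for Sfrp4 and 247 for Wnt16. MSC joint 2 had the highest value of its group in 34 of the 53 members. Without it, 20 members passed the test, beside 16.7% of all genes. Without MSC joint 5, 9 members passed beside 13% of all genes, and without control joint 4 only Wnt7b did, beside 5.76%. Without MSC joint 1, 3 or 4, or control joint 2 or 3, from 2 to 3 members passed, beside 6.06% to 7.47%. Only Wnt7b passed in all 10 fits, and the other 4 genes had p up to 0.149 in the fits where their call ended. The calls of Sfrp2 and Wnt16 also ended with edgeR (p from 0.0947 to 0.0982) and DESeq2 (p from 0.0666 to 0.0667) on the recovered reads, those of Sfrp2 and Sfrp4 in limma with only the 2 groups compared (p from 0.0782 to 0.0926) and those of Sfrp4 and Wnt16 without the joints high in Col2a1 (p from 0.0538 to 0.0546). Of the neutrophil markers, 4 of 6 rose in this comparison too, where 5.64% of all genes were called higher, with sums of 525648 to 894186 after MSC.

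After TLR3-MSC, 1 Wnt gene fell and 1 rose against control, 3.77% of the members beside 3.58% of all genes (0.906% lower and 2.68% higher), and the median log2 fold change of the members was -0.13. Wnt2 rose (log2 fold change 1.51, SE 0.61, p = 0.0226, FDR = 1.00, exact permutation p = 0.103), with 9.27, 21.8, 80.4, 32.1 and 32.8 in TLR3-MSC joints and 14.8, 3.62, 2.51, 33.8 and 11.6 in control joints. The highest Wnt2 count was in TLR3-MSC joint 3, and the other 4 TLR3-MSC joints lay within the control range. Tcf7l2 had 502, 389.8, 442, 438 and 499.6 after TLR3-MSC (log2 fold change -0.22, SE 0.10, p = 0.0367, FDR = 1.00, exact permutation p = 0.0476). Both calls ended without control joint 2 (p from 0.0617 to 0.0679), control joint 3 (p from 0.0624 to 0.0781) or TLR3-MSC joint 3 (p from 0.0617 to 0.0779) in limma, and the Tcf7l2 call also without control joints 4 or 5 or TLR3-MSC joints 2 or 4 (p from 0.0617 to 0.113). The Tcf7l2 call further ended with edgeR (p of 0.0562) and without the joints high in Col2a1 (limma p of 0.0739), the Wnt2 call with only the 2 groups compared (limma p of 0.0517), and both without the 4 joints with a count above 100 for Krt5, an epidermal keratin (limma p from 0.0566 to 0.143). Without the joints high in Col2a1 the median of the members was 0.0029. Wnt7b had 6.74, 7.28, 28.2, 48.7 and 15.8 (log2 fold change -0.95, SE 0.81, p = 0.259, FDR = 1.00, exact permutation p = 0.151) and did not pass the test. Nor did Fzd10, with 27.8, 40.4, 30.8, 62.1 and 70.1 (log2 fold change -0.07, SE 0.47, p = 0.882, FDR = 1.00, exact permutation p = 0.833). The comparisons of the 3 treatments with control share the same control joints, so that Wnt7b, Wnt16, Sfrp2, Sfrp4 and Znrf3 being called lower after both MSC and STING-MSC is not a repeat of one comparison by another.

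Between the 2 kinds of activated cells, 4 Wnt genes were lower after STING-MSC than after TLR3-MSC and none was higher, 7.55% of the members beside 2.57% of all genes in either direction and 1.78% lower. The number was 8 with edgeR and 9 with DESeq2, beside 4.09% and 4.58% of all genes, and 13 in limma with only these 2 groups, beside 8.5%. Fzd10 differed most clearly (log2 fold change -1.56, SE 0.47, p = 0.00357, FDR = 0.890, exact permutation p = 0.0238), and STING-MSC joint 4 alone, at 38.7, exceeded the lowest TLR3-MSC joint, at 27.8. Wnt7b was lower (log2 fold change -2.19, SE 0.81, p = 0.0146, FDR = 0.890, exact permutation p = 0.0635), although TLR3-MSC joints 1 and 2, at 6.74 and 7.28, overlapped STING-MSC joints 4 and 5. With a pseudocount of 5 its log2 fold change was -1.32, and without STING-MSC joint 2 it just missed the threshold, at a limma p of 0.0511. Rspo2 was lower in every STING-MSC joint (579 to 1019.5) than in every TLR3-MSC joint (1197 to 2114), as was so for 1.12% of all genes (log2 fold change -0.94, SE 0.45, p = 0.0494, FDR = 0.890, exact permutation p = 0.00794). Fzd1 had counts of 834, 2399, 875, 663 and 2658 after TLR3-MSC, with joints 2 and 5 far above the other 3 (log2 fold change -0.96, SE 0.45, p = 0.0488, FDR = 0.890, exact permutation p = 0.0238). The Rspo2 and Fzd1 calls were close to the threshold. Rspo2 passed in 1 and Fzd1 in 3 of the 10 fits that leave out a joint, with p up to 0.109 for Rspo2, without STING-MSC joint 5, and up to 0.150 for Fzd1, without TLR3-MSC joint 5. Without TLR3-MSC joint 1, 8 members passed beside 5.12% of all genes, without TLR3-MSC joint 4, 8 passed beside 3.65%, and without TLR3-MSC joint 2 or 5 or STING-MSC joint 3 or 5, 2 passed beside 0.973% to 2.16%. Of the 8 epidermal markers, 4 were lower after STING-MSC (Krt5, Krt10, Sbsn and Krt79), with sums of 218 to 733 against 505 to 21134, and Krt5, Krt14 and Krt1 were at 0 in some STING-MSC joints. Without the 4 joints of a Krt5 count above 100, chosen after seeing the data, Fzd10 and Fzd1 passed, whereas Rspo2 and Wnt7b, whose log2 fold change went to -1.43, did not (limma p from 0.0747 to 0.160).

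Against non-activated MSC, STING-MSC joints had 1 lower Wnt gene, Fzd10 (log2 fold change -1.05, SE 0.47, p = 0.0379, FDR = 0.938, exact permutation p = 0.111), which is 1.89% of the members beside 4.94% of all genes in either direction and 2.17% lower. Its counts were 22.1, 57.2, 17.9, 18.1 and 58.0 in MSC joints, with joints 2 and 5 high and the other 3 within the STING-MSC range. The Fzd10 call ended without MSC joint 2 or 5 or STING-MSC joint 3 or 5 (limma p from 0.105 to 0.133). It also ended with edgeR (p of 0.0506), without the joints high in Col2a1 (limma p of 0.131) or Krt5 (0.0503) and with only the 2 groups compared (0.0987). Without STING-MSC joint 5, 0 members passed beside 4.77% of all genes, without MSC joint 4, 3 passed beside 6.55%, and without MSC joint 1, 2 or 5 or STING-MSC joint 1 or 3, 2 passed beside 3.91% to 6.66%. TLR3-MSC joints had 2 higher Wnt genes than MSC joints, 3.77% of the members beside 3.88% of all genes in either direction and 1.89% higher. Wnt10b, a ligand that favors bone over fat cells, had counts of 129, 274, 157, 65.9 and 107.9 in MSC joints and 154, 164, 363, 206 and 272 in TLR3-MSC joints (log2 fold change 0.74, SE 0.30, p = 0.0234, FDR = 0.978, exact permutation p = 0.119). MSC joint 2 exceeded all but 1 of the TLR3-MSC joints. Wnt2b (log2 fold change 1.58, SE 0.72, p = 0.0402, FDR = 0.978, exact permutation p = 0.0714) rested on MSC joint 5, where it was listed at 0 beside counts of 17.3 to 45.5 in the other MSC joints. Without that joint its log2 fold change was 0.59 and it no longer passed. Neither call held in all 10 fits, and without MSC joint 2, 10 members passed beside 9.98% of all genes, whereas without TLR3-MSC joint 3 or 5, 0 did beside 2.91% and 3.61%, and without MSC joint 4 or 5 or TLR3-MSC joint 1, 2 or 4, 1 did beside 2.45% to 6.13%. Both calls also ended with only the 2 groups compared (limma p from 0.0696 to 0.112) and without the joints high in Krt5 (limma p from 0.12 to 0.179), and that of Wnt2b with edgeR (p of 0.127) and DESeq2 (p of 0.0889). The median log2 fold change of the members was -0.14 for STING-MSC and 0.21 for TLR3-MSC against MSC, and the first of these went to 0.07 without MSC joint 2.

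Of 60 other genes of Wnt signaling that were measured, 10 changed after STING-MSC against control, 3 higher and 7 lower, 16.7% beside the 12.2% of all genes. None of the 15 genes of the cytoplasmic signal and destruction complex passed the test. Among 11 other extracellular and membrane modulators, Cthrc1, a secreted protein that favors the Wnt5a branch (log2 fold change -1.96, p = 0.0121, exact permutation p = 0.00794), Ptk7, a receptor of planar cell polarity (log2 fold change -0.84, p = 0.0170, exact permutation p = 0.0397), and Kremen1, a Dkk1 receptor (log2 fold change -0.67, p = 0.0391, exact permutation p = 0.0317), fell in limma. Among 10 planar cell polarity genes, Prickle2 (log2 fold change -0.79, p = 0.0178, exact permutation p = 0.0159) and Daam2 (log2 fold change -0.51, p = 0.0292, exact permutation p = 0.00794) fell and Celsr3 (log2 fold change 0.64, p = 0.0131, exact permutation p = 0.0397) and Prickle3 (log2 fold change 0.25, p = 0.00876, exact permutation p = 0.00794) rose. Of 13 nuclear effectors, Bcl9, a β-catenin coactivator, fell (log2 fold change -0.32, p = 0.00321, exact permutation p = 0.0159) and the corepressor Tle4 rose (log2 fold change 0.28, p = 0.0309, exact permutation p = 0.0317). Of 11 reported target genes, Twist1 fell (log2 fold change -0.78, p = 0.0270, exact permutation p = 0.0476) and the other 10 did not pass. Without the 4 joints high in Col2a1, all 10 calls in this comparison ended (limma p from 0.0525 for Cthrc1, whose log2 fold change went to -0.97, to 0.231 for Kremen1). After MSC against control, Celsr3, Prickle3, Pygo2 and Tle3 rose, and after TLR3-MSC Hipk2 rose. Between treatments, Hipk2 was higher after TLR3-MSC than after MSC, Gsk3a higher and Dvl2 lower after STING-MSC than after MSC, and Prickle3 higher after STING-MSC than after TLR3-MSC. Of the 60 genes, 4 were called for MSC and 1 for TLR3-MSC against control, beside 8.55% and 3.58% of all genes. Against MSC, 2 were called for STING-MSC and 1 for TLR3-MSC, beside 4.94% and 3.88%. For STING-MSC against TLR3-MSC, 1 was called, beside 2.57%. In each of these comparisons the share of the 60 genes was below that of all genes. Of these 9 calls, 5 ended without the joints high in Col2a1 and 4 did not. Those 4 were Pygo2 and Prickle3 after MSC, Gsk3a after STING-MSC against MSC and Hipk2 after TLR3-MSC against MSC.

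Over the 6 comparisons, 19 of the 53 members were called at least once and 34 in none. The share of all genes called at least once is not given here, so these counts have no background beside them. In single comparisons, 2.57% to 12.2% of all genes were called. Members called in none with limma include Lrp5, Lrp6, Porcn, Ctnnb1, Axin2, Dkk1, Frzb, Wif1, Fzd7 and Lgr4. For Axin2, STING-MSC against TLR3-MSC gave a log2 fold change of -0.46 (SE 0.23, limma p = 0.0601, FDR = 0.890, exact permutation p = 0.127). Axin2 was past the unadjusted threshold there with edgeR and DESeq2, at a DESeq2 FDR of 0.908. The log2 fold changes of the members called in none, after STING-MSC against control, lay between -1.04 for Notum and 0.19 for Rnf43.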

How the data were processed

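Knee joints of 20 mice, 5 per group, were compared by bulk RNA sequencing of polyA RNA, and the sample labels gave each joint's group and replicate number. Per the labels and the paper's methods, the authors filtered reads, aligned them to GRCm39 with STAR 2.7.3a, counted them per gene with HTSeq on Ensembl 108 and named DESeq2 for testing, while the use of strand was not given in the sources used here. The deposited values are a normalized signal, counts divided by a median-ratio size factor per joint, so that sampling noise limits mainly genes with few reads. Each value was a whole number of reads times a step of its joint (99.8% to 99.9% of values within 0.1 read, 100% of those under 1000), which gave back the reads, and intervals from these cover counting error only.

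The 53 members, the 60 other pathway genes and the marker lists were chosen with earlier results of these data known. Tests used limma 3.58.1 (R 4.3.3) with its trend option on log2(normalized count + 1) over all 20 joints, without a block. A minimum mean of 5 removed 0 genes. Genes were called at an unadjusted p of at most 0.05, the FDR was adjusted by Benjamini-Hochberg over all 14793 genes, and called members were named, with Axin2, Notum, Rnf43, Znrf3 and Lgr5 as readouts and the 3 pathway genes of smallest p per comparison. Other pathway genes and markers in the text were named after their values were seen. Exact permutation tests were two-sided, over 252 splits of 5 joints against 5 on the log2 scale, with 0.00794 as the smallest p. The alternatives tried were no filter, a minimum mean of 20, pseudocounts of 0.5 and 5, only the 2 groups compared, quantile normalization, edgeR 4.0.16 and DESeq2 1.42.0 on the reads, a replicate block, each joint left out, and, added after seeing the data, joints high in Col2a1 or Krt5 left out. The tests were tried on simulated counts in which each gene varied on its own. Because the members varied together across joints, that trial does not bear on how many members were called. Gene positions are as deposited (GRCm39), exon lengths are from GENCODE mouse release 39, and sequences are from RefSeq. Joints with the same replicate number were different mice.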

Additional observations from a re-analysis of the deposited data

Results flagged for a closer look

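In 23 Wnt genes and 4 groups, 8 of 92 groups of 5 joints held 1 joint farther from the others than Dixon's 95% limit allows. The limit was applied to normalized counts, not to the log2 scale of the tests. For independent groups with normal values, 1 in 20, about 4.6, would be flagged. The members varied together across joints, so the number flagged cannot be judged against this figure. Of these 8, 5 were in MSC joint 2. That joint had a normalized count of 2127 for Fzd1 beside at most 808 in the other MSC joints, 1191 for Sfrp1 beside at most 420.4, 1536 for Sfrp2 beside at most 509.9, 246.7 for Wnt16 beside at most 85.5, and 289.6 for Znrf3 beside at most 210.2. Its Col2a1 count, 95770, was the highest of the 4 joints above 60000, and the part of cartilage content in these values was not tested. In control joint 4, Sfrp2 was at 2778 beside at most 815.6 in the other control joints, and this joint was also among the 4. In STING-MSC joint 5, Ror2 was at 30.7 beside at least 111.3, and in TLR3-MSC joint 3, Notum was at 9.38 beside at least 31.5.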

How the results depend on the processing

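The number of Wnt genes past the threshold depended on single joints. Leaving out 1 joint at a time gave 7 to 20 for STING-MSC against control, 1 to 20 for MSC against control, 0 to 2 for TLR3-MSC against control, 0 to 3 for STING-MSC against MSC, 0 to 10 for TLR3-MSC against MSC and 2 to 8 for STING-MSC against TLR3-MSC, where all joints gave 17, 5, 2, 1, 2 and 4. Over the same fits, the share of all genes past the threshold was 5.87% to 15.7%, 5.76% to 16.7%, 2.03% to 5.48%, 3.91% to 6.66%, 2.45% to 9.98% and 0.973% to 5.12%, in the same order. Without the joints high in Col2a1, the counts were 6 for STING-MSC against control, 1 for TLR3-MSC against control, 2 for STING-MSC against MSC and 6 for TLR3-MSC against MSC, beside 3.68%, 2.9%, 4.83% and 7.23% of all genes. Without those high in Krt5 they were 0 for TLR3-MSC against control and 1 for TLR3-MSC against MSC (2.6% and 2.93%). With only the 2 groups compared, MSC against control gave 3, TLR3-MSC against control 1, TLR3-MSC against MSC 0 and STING-MSC against TLR3-MSC 13 (6.14%, 3.86%, 2.32% and 8.5%). With edgeR on the recovered reads these gave 3, 1, 1 and 8 (8.85%, 3.81%, 3.99% and 4.09%). With DESeq2, MSC against control gave 3, STING-MSC against MSC 3, TLR3-MSC against MSC 1 and STING-MSC against TLR3-MSC 9 (9.71%, 6.28%, 4.7% and 4.58%). Quantile normalization gave 2 for STING-MSC against MSC (4.33%). Pseudocounts of 0.5 and 5, a minimum mean of 20 and no filter changed no count by over 1.5 times. Wnt7b, with a mean over all joints below 20, was not tested at the minimum mean of 20, so that setting says nothing of its calls. The same replicate number joins different mice, and same-numbered joints had mean correlations of -0.14 to 0.11, so the numbers do not pair them. A replicate block gave 2 for STING-MSC against TLR3-MSC and 13 for STING-MSC against control (1.97% and 10.8%), and from 0 to 3 of 5 joints correlated best with their own number.

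Of the 879 refits of called genes, 688 kept direction and call and 191 kept direction only. Refits without a filter, 42 of these, could not differ, as the minimum mean of 5 removed 0 genes, and the same holds for the medians. Without the joints high in Col2a1, 18 calls were kept and 24 were not. The median log2 fold change of the members kept its sign in 123 of 126. It went from -0.14 to 0.07 for STING-MSC against MSC without MSC joint 2, which was also the only joint of these groups high in Col2a1, and from -0.13 to 0.0029 for TLR3-MSC against control without the joints high in Col2a1. Rnf43, not called, went to -0.15 for STING-MSC against control without the joints high in Col2a1, and Notum lost most of its difference there (-0.15). With single joints left out, Notum ranged from -1.62 to -0.40 in this comparison and passed in 1 of 10 fits. Fits that leave out joints rest on fewer joints, and calls fell in some of them and rose in others. The cause of these changes was not tested. The low reads of Wnt7b and Wnt2 and the genes at 0 in MSC joint 5 limit what depth allows to be said of these ligands.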
